A study of Mus musculus with 6 samples.

Results

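The genes of respiratory complex I were followed in 4T1 cells with and without GPD2. The members were every gene of the deposited table whose symbol starts with Nduf, which gave 44 of 12534 genes. They comprised 36 subunits of the complex, 7 assembly factors (Ndufaf1 to Ndufaf7) and Ndufa4, which was first counted with complex I and is now regarded as a subunit of cytochrome c oxidase. The 4T1 line is a mammary carcinoma line of the BALB/c mouse. Its unmodified form (WT, labelled wildtype) was compared with GPD2 KO cells (labelled Gpd2 -/-), each in 3 RNA-seq libraries from cells grown in RPMI medium. The treatment field of the labels names a vector with a GPD2 guide RNA and Cas9 for every sample, WT included, although the study's methods describe transfection only for making KO lines. The KO libraries came from 1 clone, so the knockout and the clone cannot be told apart. The study's methods describe its samples in general as biologically independent, but the labels do not say whether the libraries of a group came from separate cultures, and p-values measure the spread between these samples, whatever its source.

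Complex I (NADH:ubiquinone oxidoreductase) is the entry point of electrons from NADH into the mitochondrial respiratory chain. Its peripheral arm holds the N module, which oxidizes NADH, and the Q module, which passes electrons to ubiquinone, while the membrane arm pumps protons and is divided into a proximal and a distal part. Assembly factors build the complex without staying in it. GPD2, the mitochondrial glycerol-3-phosphate dehydrogenase, feeds electrons into the same pool of ubiquinone without passing through complex I. The subunits encoded by mitochondrial DNA, and Ndufb1, Ndufaf8 and Ndufa4l2, are not analysed here.

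The libraries held 51186527 to 59846170 counted reads. Gpd2, the targeted gene, stood at 51.6 to 52.1 TPM (a level scaled for transcript length and for the library total) in the WT libraries and at 9.88 to 9.95 TPM in the KO libraries, a log2 difference of -2.39 (standard error 0.0317, edgeR quasi-likelihood adjusted p = 5.12e-11). The targeted transcript was thus low in the libraries labelled KO, although RNA of the gene was still read there. The epithelial keratins Krt8, Krt18 and Krt7, the 3 of 8 listed mammary epithelial markers in the table, summed to 1709 to 1805 TPM in WT and 987 to 1034 TPM in KO libraries, and all 3 were lower. Markers of macrophages and lymphocytes were at low levels, 23.7 to 26.9 TPM in WT and 16.9 to 18.5 TPM in KO libraries for the 3 of 8 in the table, most of it Cd68, and those of fibroblasts and endothelium, 2 of 7, gave 39.7 to 40.8 and 18.9 to 23.2 TPM, most of it Pdgfra. The part of these shifts in the complex I values was not tested. In bulk RNA, fewer cells of a kind and less RNA per cell cannot be told apart.

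Subunits and assembly factors differed in level far more than WT and KO did. The 36 subunits had a median of 149 TPM in WT cells, and 31 of them lay between 80 and 300 TPM. The 7 assembly factors had a median of 18.8 TPM and ran from 10.4 TPM for Ndufaf5 to 57.9 TPM for Ndufaf2. No assembly factor reached the level of a subunit other than Ndufs5 and Ndufa11, which stood at 13.7 and 22.5 TPM in WT. At the top was Ndufb9, a subunit of the distal membrane arm, with 1278 TPM, which made up 19.8% of the summed subunit TPM. Ndufb9 shares 19.5% of its exon length with an overlapping gene model on the same strand, Gm49356, which is not analysed here.

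**Figure D1:**
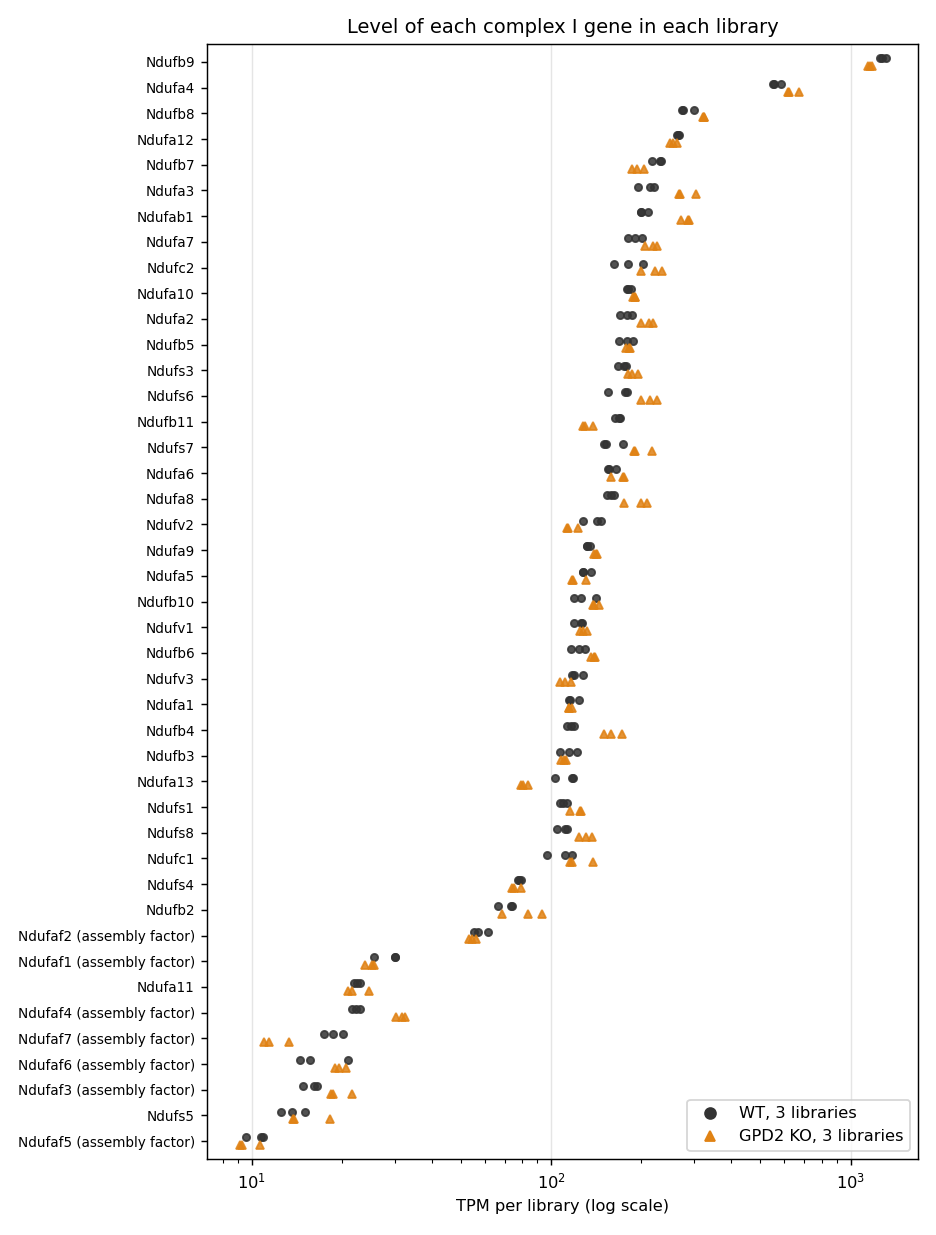
TPM of each of 43 Nduf genes (rows, ordered by the WT mean) in the 3 WT libraries (circles) and the 3 GPD2 KO libraries (triangles), on a log axis. Most subunits crowd between 80 and 300 TPM, the 7 assembly factors lie at the low end, and the distance between the groups of a gene is small against the distance between genes.

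The low level of Ndufs5, a small subunit of the proximal membrane arm, came with a near-identical partner in the table. In GENCODE, BC002163 is a processed pseudogene of 319 bases on chromosome 16, which match Ndufs5 on chromosome 4 with 2 differences. RefSeq gives BC002163 a longer span of 500 bases (chr16:42955580-42956079), so the match need not cover the whole model behind the listed TPM. It was listed at 139 to 154 TPM in WT and 164 to 185 TPM in KO libraries, against 12.5 to 15.1 and 13.7 to 18.2 TPM for Ndufs5. Together the pair reached 161 TPM in WT and 187 TPM in KO cells, a level within the range of the other subunits. The coding stretch that holds both differences is shown, with the differing bases in capitals, because few reads that fall in the shared part could tell the genes apart. It covers coding bases 41 to 110 of Ndufs5 (gene at chr4:123712710-123718186, minus strand, GRCm38) and its counterpart in BC002163 (GENCODE model at chr16:42955631-42955949, plus strand).
Ndufs5: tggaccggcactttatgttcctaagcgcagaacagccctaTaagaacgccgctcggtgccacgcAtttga
BC002163: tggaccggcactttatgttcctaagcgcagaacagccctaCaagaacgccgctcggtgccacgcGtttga
Ndufs5 itself did not pass the test (log2 difference 0.15, adjusted p = 0.393), whereas BC002163 was higher (0.23, adjusted p = 0.009). The median over all tested genes of chromosome 16, which holds BC002163, was also 0.23. How the reads of Ndufs5 were shared out with BC002163 is not known. Near-identical processed pseudogenes, at 95% identity or more over 100 bases or more, exist for 8 members in all. Those of Ndufa12, Ndufab1, Ndufb3, Ndufb4, Ndufb11, Ndufs3 and Ndufs6 are not analysed here, and the levels of these genes carry the same uncertainty.

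Both directions occurred among the complex I genes, and the changes were small. All 44 members passed the filter on low counts. At an adjusted p under 0.05, 18 of them were higher in GPD2 KO cells and 9 lower, and 17 did not pass. Over all 12106 tested genes, 66.8% passed, 33.5% higher and 33.3% lower, so the 61.4% of members that passed lay near the background, with more of them on the higher side. Their median log2 difference was 0.10, against a median of 0.00 over all tested genes, and their median absolute log2 difference was 0.19, against 0.29. No member passed the thresholds of the study, a fold of 2 with an unadjusted p under 0.05 from edgeR's exact test, which 8.64% of all genes passed. At a fold of 1.5, which 20.5% of all genes passed, the single member was Ndufaf7. By the unadjusted exact p alone, 22 members passed, and the count past both thresholds was also 0 with RLE scaling factors. Log2 ratios of mean TPM and log2 differences of counts lay within 0.0604 of each other for every member. Of the 27 calls, 19 held whichever single library was left out.

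Among both subunits and assembly factors some genes were higher and others lower, and the difference between these groups was not tested. Of the 36 subunits, 15 were higher and 7 lower, and 14 did not pass the test, with a median log2 difference of 0.10 and a range from -0.47 to 0.47. Without GPD2 KO replicate 2 that median was 0.06. Of the 7 Nduf assembly factors, 2 were higher and 2 lower, and 3 did not pass the test, with a median of -0.08, the value of Ndufaf2, which did not pass, and with a range from -0.65 to 0.50 that is wider than that of the subunits despite the smaller number of genes. Without WT replicate 1 the median of the factors was -0.04. Summed over subunits, the level was 6456 ± 44.8 TPM in WT and 6745 ± 157 TPM in KO (SD, n = 3), a ratio of 1.04. The lowest KO library, at 6597 TPM, was above the highest WT library, at 6484 TPM. The summed level of the 7 assembly factors was 171 ± 2.54 TPM in WT and 172 ± 2.77 TPM in KO (SD, n = 3), and these libraries overlapped. From TMM-scaled CPM, which are not divided by length, the ratios were 1.03 for the subunits and 1.06 for the factors.

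**Figure D2:**
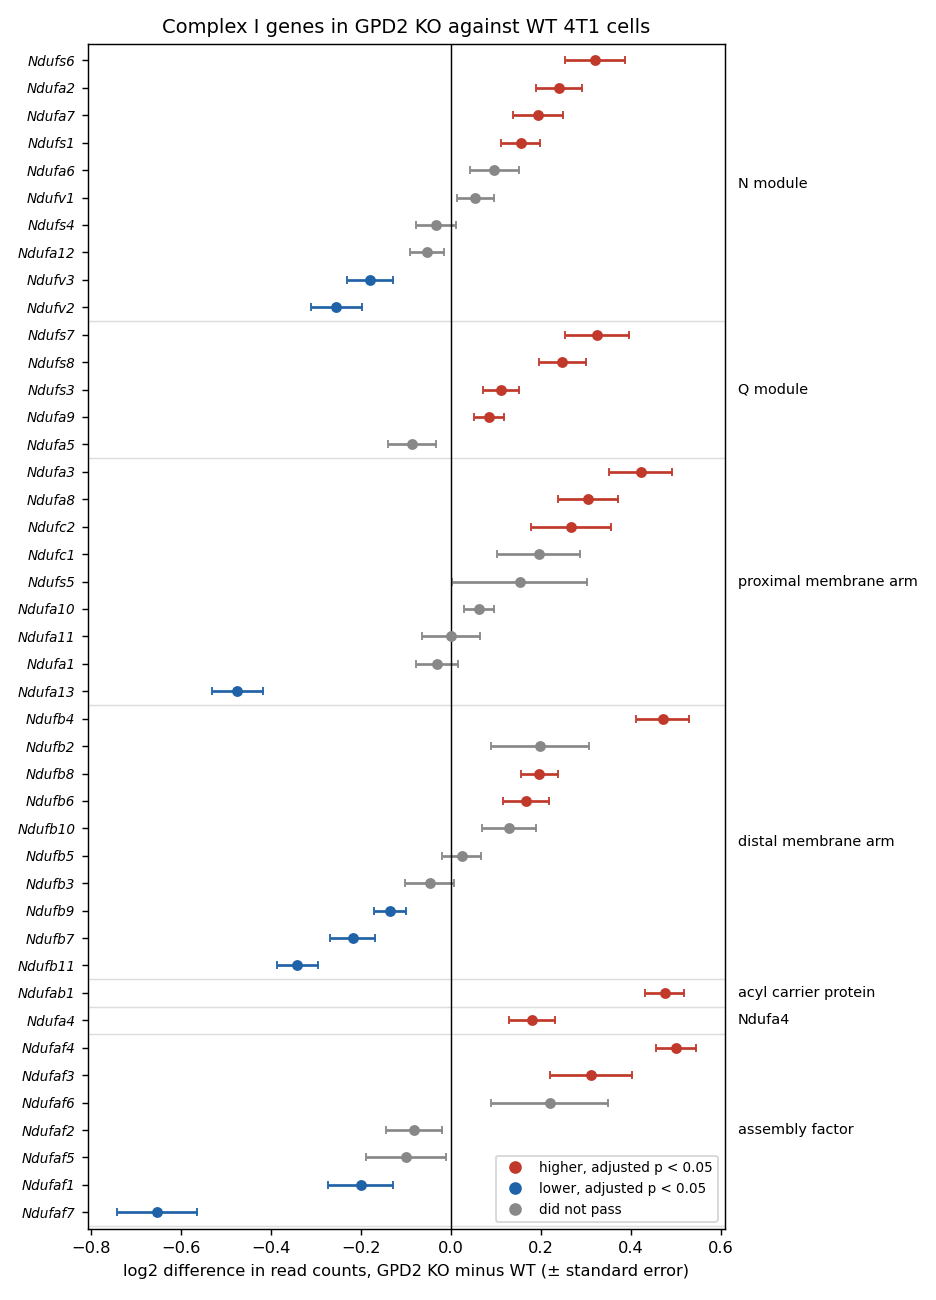
Log2 difference in read counts, GPD2 KO minus WT, of each of 43 Nduf genes with its standard error, grouped by role and ordered by value within a role. Red marks a higher and blue a lower level at an adjusted p under 0.05 from edgeR's quasi-likelihood test, and every role with more than 1 gene holds values on both sides of 0, from -0.65 for Ndufaf7 to 0.50 for Ndufaf4.

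The N module, where NADH binds and gives up its electrons, had 4 higher and 2 lower genes among 10. Ndufv1, which carries the flavin and the NADH site, was at 126, 126 and 119.5 TPM in WT and 125, 132 and 128 TPM in KO libraries. These values overlapped, and the log2 difference of 0.05 did not pass (adjusted p = 0.266). Its partner Ndufv2, an iron-sulfur subunit, was at 147, 128 and 142 TPM in WT and 123, 113 and 113 TPM in KO libraries. All KO values of Ndufv2 were below all WT values, with a log2 difference of -0.26 (standard error 0.0564, adjusted p = 0.00282). Ndufs1, the largest subunit of the arm and the carrier of further iron-sulfur clusters, went the other way, from 109.6, 113 and 107 TPM to 126, 116 and 125 TPM (log2 difference 0.15, adjusted p = 0.00956). Hence the subunits that form the electron path of the N module did not move together. Of its accessory subunits, Ndufs6, which binds zinc, showed the largest log2 difference, 0.32, followed by Ndufa2 at 0.24 and Ndufa7 at 0.19, while Ndufv3 fell by 0.18. Ndufa7 lost its call without WT replicate 1 (adjusted p = 0.0598), and so did Ndufv3 (adjusted p = 0.0542). Ndufs4, Ndufa6 and Ndufa12 did not pass, with log2 differences of -0.03, 0.10 and -0.05, but Ndufa6 passed without KO replicate 1 (0.14, adjusted p = 0.0208).

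Of the 6 genes of the Q module, 5 are described here, and 4 of these were higher. The other is counted only in the totals over the subunits. Ndufs7, which holds the iron-sulfur cluster next to ubiquinone, was at 153, 174 and 151 TPM in WT and 189.6, 217 and 189.9 TPM in KO libraries. The groups did not overlap, and the log2 difference was 0.32 (standard error 0.0708, adjusted p = 0.00261). Ndufs8, with a pair of clusters on the same path, rose from 111, 113 and 105 TPM to 124, 130.4 and 137 TPM, a log2 difference of 0.25 (adjusted p = 0.00229). Ndufs3, at 178, 168 and 175 TPM in WT and 186, 180.4 and 194 TPM in KO, showed a smaller log2 difference of 0.11 (adjusted p = 0.032). The call of Ndufs3 was lost without WT replicate 2 (0.08, adjusted p = 0.121), WT replicate 3 (0.12, adjusted p = 0.0648), KO replicate 1 (0.12, adjusted p = 0.0572) or KO replicate 3 (0.08, adjusted p = 0.152). Ndufa9, at a log2 difference of 0.08, passed narrowly with all libraries (adjusted p = 0.048) and did not pass without any 1 of the 6 (adjusted p from 0.0656 to 0.168). Ndufa5 did not pass, with a log2 difference of -0.09 (adjusted p = 0.18), but passed without KO replicate 3 (-0.14, adjusted p = 0.0414).

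Of the 9 genes of the proximal membrane arm, 3 were higher and 1 was lower. Ndufa13, known also as GRIM-19 from its part in interferon and retinoid induced cell death, was at 117, 118 and 103 TPM in WT and 79.3, 80.8 and 83.5 TPM in KO libraries. Its log2 difference was -0.47 (standard error 0.0566, adjusted p = 5.4e-05), with no overlap between the groups. Its exons overlap those of Tssk6 on the opposite strand over 30.0% of their length, but Tssk6 was listed with 11 to 29 reads against 2315 to 4081 for Ndufa13. Ndufa3, a small membrane subunit, was at 214, 195 and 219.8 TPM in WT and 269.8, 305 and 266 TPM in KO libraries, a log2 difference of 0.42 (standard error 0.0693, adjusted p = 0.00046). Ndufa8, which faces the intermembrane space, was higher by 0.30 on the log2 scale in the KO cells (adjusted p = 0.00277). Ndufc2 was higher by 0.27 (adjusted p = 0.0231) with overlapping libraries, and its call was lost without WT replicate 1 (adjusted p = 0.0557), WT replicate 2 (adjusted p = 0.0774), KO replicate 2 (adjusted p = 0.0891) or KO replicate 3 (adjusted p = 0.0629). The other 5, Ndufa1, Ndufa10, Ndufa11, Ndufs5 and Ndufc1, did not pass, although Ndufc1 passed without WT replicate 3 (0.26, adjusted p = 0.0443). Ndufa11 had a log2 difference of 0.00 and took either sign close to 0 under other settings.

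The distal membrane arm, with 10 genes, was evenly split, with 3 higher, 3 lower and 4 that did not pass. Ndufb4 was at 116, 113 and 119 TPM in WT and 158, 173 and 151 TPM in KO libraries, a log2 difference of 0.47 (standard error 0.0591, adjusted p = 7.65e-05). Ndufb11, an X-linked subunit, was at 163, 168 and 170.2 TPM in WT and 128, 138 and 130.2 TPM in KO libraries, a log2 difference of -0.34 (standard error 0.0457, adjusted p = 0.000118). Neither gene had overlapping groups, so members of 1 arm of the enzyme moved apart. Ndufb8, whose protein is unstable when the complex is not assembled, was higher by 0.20 (adjusted p = 0.00206) and Ndufb6 by 0.17 (adjusted p = 0.0152), although Ndufb6 lost its call without WT replicate 2 (0.12, adjusted p = 0.056). Ndufb6 shares 39.0% of its exon length with Smim27 on the opposite strand, so reads of the pair may not be told apart. Smaller overlaps of this kind exist for Ndufb11 with Rbm10 (12.9%), Ndufb5 with Mrpl47 (12.3%) and, in the N module, Ndufa2 with Tmco6 (11.5%). Ndufb7 fell by 0.22 on the log2 scale (adjusted p = 0.0037), and the abundant Ndufb9 by 0.14 (adjusted p = 0.00746). Of the 4 that did not pass, Ndufb2 passed without KO replicate 3 (0.31, adjusted p = 0.0122) and Ndufb10 without WT replicate 2 (0.19, adjusted p = 0.0109). The summed TPM of the distal arm, of which Ndufb9 is the most abundant gene, had a ratio of 0.976 with overlapping libraries (2670 to 2715 TPM in WT and 2580 to 2684 TPM in KO), while that of the proximal arm had a ratio of 1.12 without overlap (1062 to 1134 and 1179 to 1316 TPM). Ndufab1, the acyl carrier protein of mitochondrial fatty acid synthesis, which sits in the complex as a subunit, was at 200.2, 199 and 211 TPM in WT and 272, 286 and 289 TPM in KO libraries. Its log2 difference was 0.47 (standard error 0.0429, adjusted p = 8.78e-06), which does not differ from that of Ndufb4 beyond their standard errors. Ndufa4, outside complex I, was at 550.0 to 584 TPM in WT and 616 to 675 TPM in KO libraries, higher by 0.18 on the log2 scale (adjusted p = 0.011).

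The assembly factors held both extremes of the 44 genes. Ndufaf7 is a methyltransferase that acts early in assembly, and it was at 20.2, 18.7 and 17.4 TPM in WT and 11.4, 13.3 and 11 TPM in KO libraries. Each KO library was below each WT library, and the log2 difference of -0.65 (standard error 0.0883, adjusted p = 0.000126) was the largest fall. Ndufaf4, which acts with Ndufaf3 in building the Q module, was at 22.3, 21.6 and 23.1 TPM in WT and 32.5, 30.3 and 31.8 TPM in KO libraries. With no overlap and a log2 difference of 0.50 (standard error 0.0448, adjusted p = 8.52e-06) it showed the largest rise. Its partner Ndufaf3 was also higher, from 14.8, 16.5 and 16.1 TPM to 18.7, 21.6 and 18.4 TPM (log2 difference 0.31, adjusted p = 0.0127). Ndufaf1, a factor of the membrane arm, was at 25.6, 30.1 and 30.1 TPM in WT and 25.2, 23.8 and 25.6 TPM in KO libraries, and the groups met at 25.6 TPM. It was lower by the test (log2 difference -0.20, adjusted p = 0.033), and the call was lost without WT replicate 2 (adjusted p = 0.102), WT replicate 3 (adjusted p = 0.101), KO replicate 1 (adjusted p = 0.067) or KO replicate 2 (adjusted p = 0.0873).

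The other 3 Nduf factors had overlapping groups and did not pass. Ndufaf2, which takes part in a late step of assembly, was at 61.5, 57.0 and 55.2 TPM in WT and 53.1, 54.6 and 56.1 TPM in KO libraries (adjusted p = 0.264). Ndufaf2 shares 65.6% of its exon length with B230220B15Rik on the opposite strand, and whether reads were counted by strand is not stated in the sources used here. Ndufaf5, which hydroxylates an arginine of Ndufs7, was at 10.8, 9.58 and 10.9 TPM in WT and 9.30, 10.7 and 9.13 TPM in KO libraries (adjusted p = 0.341). Ndufaf6 was at 14.5, 15.7 and 21.0 TPM in WT and 19.1, 20.7 and 19.6 TPM in KO libraries (adjusted p = 0.162), and here 1 WT library stood above all others. Without that library, WT replicate 3, the log2 difference of Ndufaf6 was 0.40 in place of 0.22 (adjusted p = 0.00531).

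Factors of complex I that do not carry the Nduf name were taken from a list of 17 genes, of which 14 were in the table. Of these, 7 were higher and 2 lower, and 5 did not pass the test, with a median log2 difference of 0.19. The 64.3% that passed lay near the 66.8% of all tested genes, of which 33.5% were higher and 33.3% lower. Ecsit, part of the MCIA complex that assembles the membrane arm, was at 43.3, 42.3 and 43.1 TPM in WT and 77.2, 78.3 and 76.9 TPM in KO libraries. This was a log2 difference of 0.85 (standard error 0.0397, adjusted p = 1.23e-07), larger than that of any Nduf gene. Tmem126a was higher by 0.71 (adjusted p = 1.65e-06), Foxred1, which binds FAD, by 0.56 (adjusted p = 1.42e-06) and Atp5sl by 0.38 (adjusted p = 7.93e-05), each without overlap. Bcap31 (-0.54, adjusted p = 1.29e-05) and Aifm1 (-0.27, adjusted p = 0.000289), were the factors that were lower. Both lie on the X chromosome, as do Ndufb11, which was lower, and Ndufa1, which did not pass (log2 difference -0.03). Over all tested genes of the X chromosome 40.7% were higher and 37.0% lower, but segments of it differed, as given below. Over the 6 genes of the MCIA group (Ndufaf1, Acad9, Ecsit, Tmem126b, Tmem186 and Timmdc1), 3 were higher and 1 lower, and 2 did not pass, of which Timmdc1 passed without WT replicate 2 (0.15, adjusted p = 0.04). These 6 genes thus gave 66.7% called, near the same background. Their summed level was 168 to 172 TPM in WT and 207 to 216 TPM in KO libraries, a ratio of 1.24, and Ecsit alone accounted for most of that difference.

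**Figure D3:**
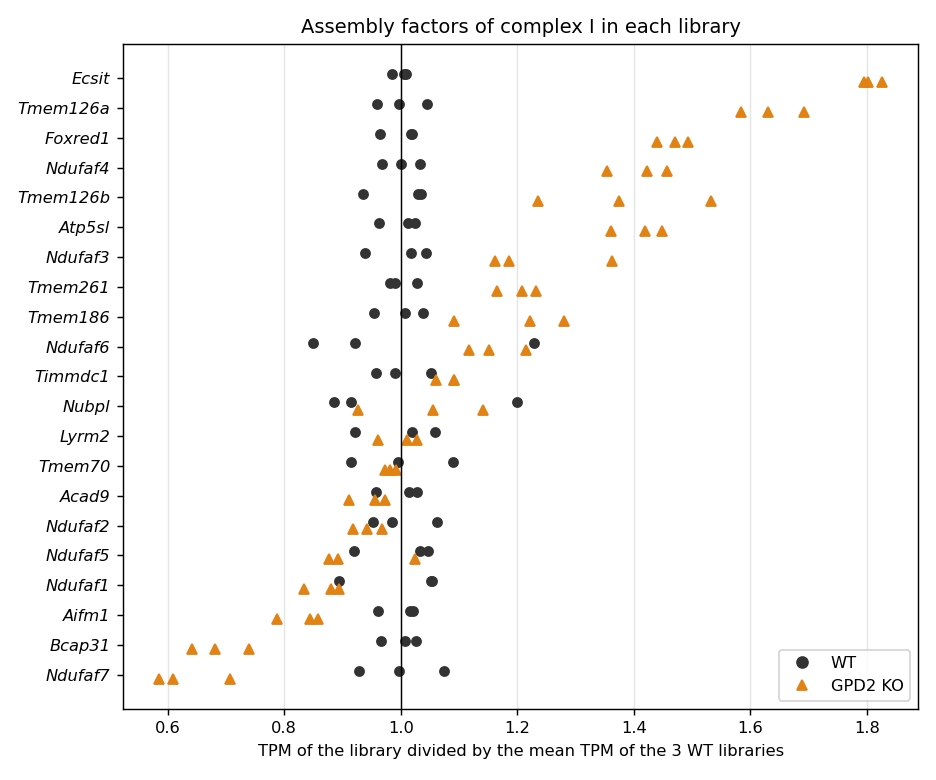
TPM of 21 assembly factors of complex I in each library, divided by the mean of the 3 WT libraries, with circles for WT and triangles for GPD2 KO. Ecsit, Tmem126a, Foxred1 and Ndufaf4 stand well to the right of their WT values, Bcap31 and Ndufaf7 to the left, and the middle rows overlap.

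Several chromosomes were shifted as a whole between WT and KO cells, and the members on them had the sign of their chromosome. Over all tested genes, the median log2 difference was near 0 on most of the 20 chromosomes but beyond 0.15 on 6 of them, at 0.26 on chromosome 7, 0.23 on chromosome 16 and 0.20 on chromosome 9, and at -0.30 on chromosome 8, -0.36 on chromosome 11 and -0.39 on chromosome 14. Each library was also set against the mean of the 3 WT libraries, so WT values centre near 0 by construction. On that scale the shift was alike in the 3 KO libraries. It was 0.25, 0.24 and 0.25 on chromosome 7, for example, and -0.28, -0.27 and -0.28 on chromosome 8. Chromosome medians of single WT libraries stayed between -0.0161 and 0.0122, which shows only their spread around their own mean. On the shifted chromosomes lie 7 members, none of them on 11 or 14. Ndufab1, Ndufa3 and Ndufc2 on chromosome 7, Ndufaf3 on chromosome 9 and Ndufb4 on chromosome 16 were all higher, and Ndufa13 and Ndufb7 on chromosome 8 were both lower. All 7 thus passed the test, each in the direction of its chromosome, whereas of the 37 members elsewhere 13 were higher and 7 lower, and 17 did not pass. For comparison, 60.2% of all tested genes on chromosome 7 were higher and 12.2% lower, and on chromosome 8, 8.76% were higher and 65.1% lower. Of the higher factors without the Nduf name, Ecsit and Foxred1 lie on chromosome 9 and Tmem186 on chromosome 16. Tmem126a, Tmem126b and Atp5sl lie on chromosome 7, and Tmem261 lies on chromosome 4, which was not shifted beyond 0.15.

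**Figure D4:**
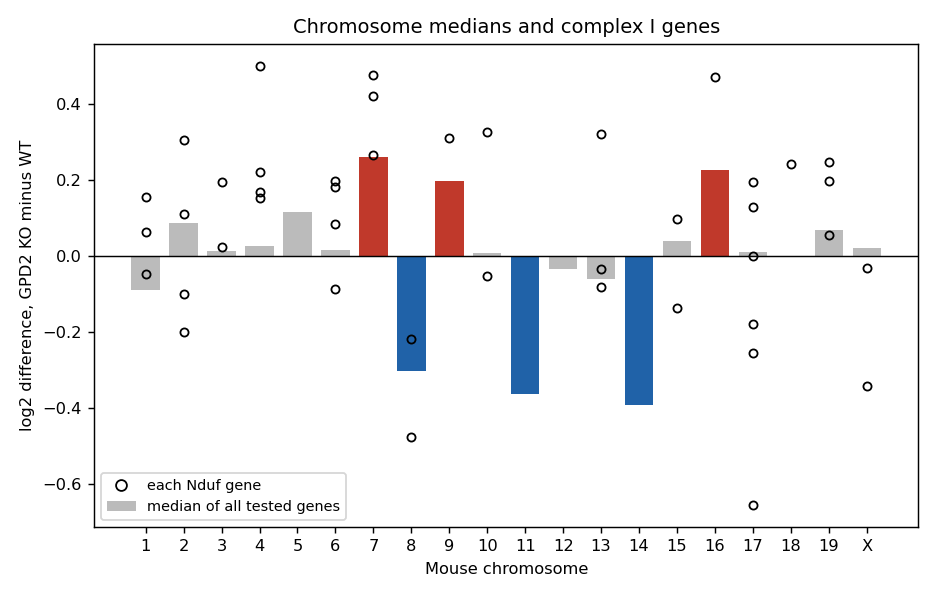
Median log2 difference, GPD2 KO minus WT, of all tested genes on each mouse chromosome (bars, coloured where the median is beyond 0.15 in size) and the value of each of 43 Nduf genes (open circles). The members on chromosomes 7, 9 and 16 lie above 0 and those on chromosome 8 below it, as the bars do, whereas members on the other chromosomes spread to both sides.

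Each member was also set beside its neighbours, up to 25 tested genes on either side. Over the 44 members, the log2 difference correlated with the median of the neighbours at Pearson r = 0.591 and Spearman rho = 0.489, against 0.288 and 0.404 over 12085 genes. Over the 14 other assembly factors, the correlations were 0.737 and 0.653. These correlations run across genes, which share the same libraries and, where windows overlap, the same neighbours, and are a description only. Of the 27 members that passed, 20 had the sign of their neighbours, 74.1% against 71.1% of all 8075 genes that passed and had a position, so the members lay near the background. Within 0.1 of the neighbour median on the log2 scale lay 7 of the 27, 25.9% against 17.7%. Segments of chromosomes without a shift of their own also differed, as around Ndufb11 on the X chromosome (-0.34 for the gene, -0.27 for the neighbours) and around Ndufv2 on chromosome 17 (-0.26 and -0.31). The X-linked Bcap31 (-0.54 and -0.45), Aifm1 (-0.27 and -0.38) and Ndufa1 (-0.03 and -0.30) also lay among lower neighbours. The median absolute distance from the neighbours was 0.145 over the 44 members and 0.232 over all tested genes. More than 0.3 from their neighbours lay 5 of the members that passed, and the share over all genes was not counted. These were Ndufaf7 (-0.65 against -0.12), Ndufaf4 (0.50 against -0.02), Ndufs6 (0.32 against -0.07), Ndufa2 (0.24 against -0.08) and Ndufv3 (-0.18 against 0.13). Ndufaf4 and Ndufaf7, the extremes of the family, were therefore the members that stood farthest from their surroundings, while Ndufab1, Ndufb4, Ndufa3 and Ndufa13, next in size, were within 0.2 of theirs.

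**Figure D5:**
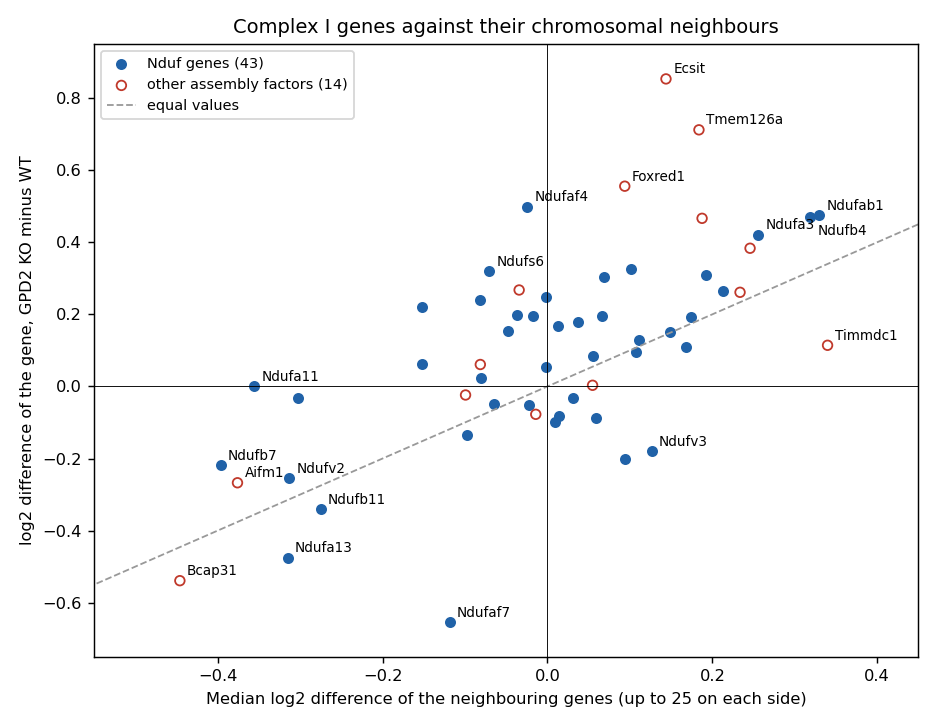
Log2 difference of each gene, GPD2 KO minus WT, against the median of its chromosomal neighbours, for 43 Nduf genes (filled) and 14 other assembly factors (open), with the line of equal values. Ndufab1, Ndufb4 and Ndufa3 lie at the upper right and Ndufa13, Ndufb7 and Ndufb11 at the lower left near the line, whereas Ndufaf4, Ecsit, Tmem126a and Foxred1 lie far above it and Ndufaf7 far below it.

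When the model was refitted with the median of each chromosome set to 0, an alternative chosen after the data were seen, 14 members were higher and 7 were lower, and 61.0% of all tested genes passed. Of the 27 calls, 20 were kept in the same direction. Among those lost were Ndufa3, Ndufa9, Ndufaf3, Ndufc2 and Ndufs3, which had been higher, and Ndufb7, which had been lower, and Ndufa10 was newly called at 0.15 (adjusted p = 0.00347). Ndufa3 went from 0.42 to 0.16 (adjusted p = 0.0692), Ndufab1 from 0.47 to 0.21 (adjusted p = 0.00183), Ndufb4 from 0.47 to 0.24 (adjusted p = 0.00539) and Ndufa13 from -0.47 to -0.17 (adjusted p = 0.0234). The largest values among the subunits in this fit were those of Ndufs6 (0.38, adjusted p = 0.000853) and Ndufb11 (-0.36, adjusted p = 0.000104). Ndufb7 changed sign, from -0.22 to 0.08 (adjusted p = 0.184). Ndufaf4 (0.47, adjusted p = 1.59e-05) and Ndufaf7 (-0.66, adjusted p = 0.000144) hardly moved, and Ecsit was still higher at 0.66 (adjusted p = 8.1e-07). Among the other factors, Tmem126a was at 0.45 (adjusted p = 4.22e-05) and Foxred1 at 0.36 (adjusted p = 3.19e-05). Tmem126b (0.21, adjusted p = 0.0845), Tmem186 (0.03, adjusted p = 0.631) and Atp5sl (0.12, adjusted p = 0.0501) no longer passed. The median of the 6 MCIA genes was -0.03 in place of 0.19. The median of the subunits was 0.08, that of the Nduf assembly factors -0.02 and that of the 14 other factors 0.08, and among those 14 the fit called 4 genes higher and 2 lower. What lies behind the shifts of whole chromosomes was not tested.

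Promoters were read for letters of factors that are known to act on nuclear genes of the respiratory chain. RefSeq promoters of GRCm38.p6, 300 bases long from 250 before to 50 after an annotated start, were found for 39 of the 44 members. The letters of NRF1 (GCGCATGC) occurred on either strand in 5 of 39 members, 12.8%, against 6.19% of tested genes and 3.05% of all genes with a promoter. Those of ETS factors such as GABP (CCGGAAG) occurred in 5, against 21.1% and 9.93%, those of the estrogen-related receptors (AAGGTCA) in 3, 7.69%, against 3.58% and 5.38%, and those of YY1 (AAGATGG) in 7, 17.9%, against 8.58% and 7.28%. The YY1 letters had a uniform setting. All 7 lay on the coding strand 23 to 39 bases after the start, and in all 7 the ATG within them was an annotated start codon. They are printed in capitals with up to 10 bases on either side, 5′ to 3′, because of this shared setting. How often other genes with these letters share the setting was not counted.
Ndufs7 (chr10:80249463-80249489, plus strand): ggccgaggccAAGATGGcggcgctggc
Ndufs6 (chr13:73328433-73328459, minus strand): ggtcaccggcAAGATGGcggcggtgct
Ndufs4 (chr13:114388045-114388069, minus strand): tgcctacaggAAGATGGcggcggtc
Ndufa3 (chr7:3617385-3617411, plus strand): cgccaagaacAAGATGGccgggagtaa
Ndufa9 (chr6:126849099-126849125, minus strand): attgtgggagAAGATGGcggccgccgt
Ndufb8 (chr19:44555393-44555414, minus strand): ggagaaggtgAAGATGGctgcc
Ndufc1 (chr3:51408917-51408943, minus strand): cctgcggaacAAGATGGcgccgtccgt
Of these, Ndufs7, Ndufs6, Ndufa3, Ndufa9 and Ndufb8 were higher, none was lower, and Ndufs4 and Ndufc1 did not pass. Ndufa9 lost its call whichever single library was left out, and with chromosome medians set to 0 neither Ndufa3 nor Ndufa9 passed, which left 3 of 7. Over the 822 tested genes with the same letters, 39.1% were higher and 29.7% lower, with a median log2 difference of 0.05. A match of letters does not show that a factor binds there.

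The 110 bases up to the start of Ndufa8 and Ndufa11, which both hold NRF1 letters, are shown with the motif in capitals. Ndufa8 was higher by 0.30 on the log2 scale, with a neighbour median of 0.07. Ndufa11 was at 0.00, with a neighbour median of -0.36. Whether the letters bear on these values was not tested. For Ndufb4, the stretch with the letters of the estrogen-related receptors is given.
Ndufa8 (chr2:36049339-36049448, minus strand): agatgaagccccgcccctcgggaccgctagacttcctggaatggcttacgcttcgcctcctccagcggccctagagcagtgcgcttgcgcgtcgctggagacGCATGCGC
Ndufa11 (chr17:56717652-56717761, plus strand): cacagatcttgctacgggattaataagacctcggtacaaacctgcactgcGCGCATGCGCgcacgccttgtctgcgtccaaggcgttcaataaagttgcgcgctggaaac
Ndufb4 (chr16:37654369-37654478, minus strand): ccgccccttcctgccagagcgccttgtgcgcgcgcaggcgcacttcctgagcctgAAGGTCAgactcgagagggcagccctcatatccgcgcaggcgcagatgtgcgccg
Of the 5 members with NRF1 letters, Ndufa8 and Ndufaf4 were higher and Ndufa6, Ndufa11 and Ndufaf5 did not pass. With ETS letters, Ndufb6, Ndufs3 and Ndufs8 were higher and Ndufaf1 and Ndufb7 were lower, and with those of the estrogen-related receptors Ndufb4 was higher while Ndufb2 and Ndufs5 did not pass. Of all 593 tested genes with NRF1 letters, 32.7% were higher and 35.4% lower. The shares were 34.0% and 32.0% of 2026 genes with ETS letters. For the estrogen-related receptors they were 35.3% and 30.6% of 343 genes.

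The regulators themselves were measured in the same libraries, 12 of a list of 13. Ppargc1b, a coactivator of mitochondrial biogenesis, was at 7.42, 7.40 and 6.39 TPM in WT and 11.4, 10.7 and 11.6 TPM in KO libraries, a log2 difference of 0.67 (standard error 0.0728, adjusted p = 2.95e-05). Esrra, the estrogen-related receptor alpha, was at 30.0, 30.3 and 28.7 TPM in WT and 41.3, 45 and 43 TPM in KO libraries, a log2 difference of 0.54 (standard error 0.0495, adjusted p = 9.44e-06). In both genes every KO library was above every WT library. Yy1 was higher by 0.26 (adjusted p = 0.000171) and Nrf1 by 0.15 (adjusted p = 0.0178), although the libraries of Nrf1 overlapped in TPM. Nrf1 lost its call without WT replicate 1 (adjusted p = 0.0869), KO replicate 2 (adjusted p = 0.058) or KO replicate 3 (adjusted p = 0.0558), and with limma on log2(TPM + 1) and log2(TPM + 0.1) (adjusted p = 0.0638 and 0.0621). Tfb1m (-0.44, adjusted p = 0.00102) and Tfb2m (-0.28, adjusted p = 0.000219), which serve the mitochondrial ribosome and mitochondrial transcription, were lower. Gabpa, Gabpb1, Gabpb2, Pprc1, Tfam and Polrmt did not pass. In all, 4 of the 12 were higher and 2 lower, 50% called against 66.8% of all tested genes. With chromosome medians set to 0, Gabpa (-0.23, adjusted p = 0.000687) and Gabpb1 (-0.13, adjusted p = 0.0205) were called lower. This gave 4 higher and 4 lower regulators, 8 of 12, in a fit that called 61.0% of all tested genes.

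Nuclear-encoded subunits of the other respiratory complexes gave counts close to those of complex I, and both lay near the share over all tested genes. Of 42 subunits of complexes II to V in the table, 18 were higher and 7 lower, and 17 did not pass. This was 59.5% called, against 61.1% of the complex I subunits and 66.8% of all tested genes. Their median log2 difference was 0.08, against 0.10. Their summed TPM gave a ratio of 1.08, against 1.04 for complex I, and by complex the ratios were 1.08 for II, 1.09 for III, 1.10 for IV and 1.06 for V. With chromosome medians set to 0, 14 of the 42 were higher and 2 were lower, and 12 of the 36 complex I subunits were higher and 5 were lower. Over all 12106 tested genes that fit called 3723 higher and 3660 lower, 61.0% in all. The difference between the complexes was not tested.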

How the data were processed

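Stranded mRNA libraries of 3 WT and 3 GPD2 KO samples were read from both ends. The submitters' processing notes name Trimmomatic 0.38, HISAT2 2.1.0 with the mm10 build, and StringTie 1.3.4d, which per the methods served trimming, alignment and quantification. Read counts were deposited as whole numbers, not normalized by the authors. None of the 12534 genes has a count of 0 in any library, so silent genes are not covered. The TPM and FPKM values were computed by the authors per library and deposited beside them. The log2 values of scaled counts that the authors deposited, and 4 columns of their own comparison (fold changes, p-values and the like), were not used.

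Counts were tested in R 4.3.3 with edgeR 4.0.16 (TMM, filterByExpr with a minimum count of 10, quasi-likelihood test, Benjamini-Hochberg adjustment over the 12106 genes kept). Standard errors were derived from the F statistic. Total counts were 51186527 to 59846170, with TMM factors from 0.992 to 1.01. In a simulation of GPD2 KO against WT, 11847 of 12047 genes were left unchanged, and 19 of these were called. At 1.2-fold, 13 of 50 changed genes were recovered, and at 1.5-fold 41 of 50. At 2-fold 47 of 50 were recovered, and at 4-fold 50 of 50. In the data 66.8% of tested genes passed, and recovery with that many changed genes was not tested. No replicate pair agreed within sampling noise, so each library counted separately.

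Members, gene lists and the naming rule were chosen with earlier results of these data known. Values per library were given for the 8 members with the largest absolute change among those that passed, the core subunits and the Nduf assembly factors, and of the other lists for the regulators and up to 6 genes with the smallest adjusted p. In the list of other factors, Atp5sl replaced the wrongly entered Atp5s after the table was opened. A member that the rule takes is not reported here by name and is left out of the figures. The motifs, the chromosome comparison and the Ndufs5 pair were chosen after values were seen. Promoters and positions came from RefSeq and exons from GENCODE M21, both on the mm10 assembly (12512 of 12534 genes matched by Entrez number), and copies were sought with blastn 2.17.0. Replicate numbers did not pair the samples (correlations of deviations 0.0549, 0.0621 and -0.0165). Alternatives used RLE factors, no filter, DESeq2 1.42.0, limma 3.58.1 (voom, and log2 of TPM plus 1 or 0.1), a replicate block, single libraries left out, and chromosome medians set to 0.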

Additional observations from a re-analysis of the deposited data

How the results depend on the processing

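The counts of changed members kept within 1.5 times of the main values in every alternative run, with 14 to 18 higher and 7 to 10 lower. The replicate block gave 17 higher and 9 lower members, with Ndufa9 at 0.08 (adjusted p = 0.0677), and 7974 changed genes over the whole table. Leaving out 1 library at a time gave a median of 0.063 to 0.127 for the subunits, the lowest without GPD2 KO replicate 2, and 15 to 18 higher and 7 to 10 lower members. At a fold of 1.5 in place of 2, 1 member passed the thresholds of the study. The summed level of the Nduf assembly factors had a ratio of 1.06 from TMM-scaled CPM, which are not divided by length, against 1.01 from TPM. Ndufa11, near 0, was at -0.0051 without the filter, -0.00209 with limma-voom, -0.0047 and -0.00503 with limma on log2(TPM + 1) and log2(TPM + 0.1), -0.0024 with the replicate block, -0.0096 with chromosome medians set to 0 and -0.0842 to 0.0415 with 1 library left out. Chromosome medians set to 0 turned Ndufs4 to 0.028, Ndufv1 to -0.015, Ndufb3 to 0.043, Ndufb7 to 0.083 and Timmdc1 to -0.11, and of these Ndufb7 had been called. With 1 library left out, the ranges that crossed 0 were -0.0534 to 0.00484 for Ndufa1, -0.0215 to 0.0622 for Ndufb5, -0.0921 to 0.00123 for Ndufb3 and -0.00926 to 0.225 for Ndufs5, none of them called. Ndufv3 lost its call on log2(TPM + 1) and log2(TPM + 0.1) (adjusted p = 0.0543 and 0.053) and without WT replicate 1 (adjusted p = 0.0542), Ndufa7 without WT replicate 1 (adjusted p = 0.0598), and DESeq2 called Ndufc1 (0.20, adjusted p = 0.0447). The causes were not tested. Precision is limited most for the members with the fewest reads, such as Ndufs5 with 159 to 233.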

Other observations

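Among the 42 nuclear subunits of complexes II to V, the 6 with the smallest adjusted p lie on chromosomes 7, 9 and 11. Genes of these chromosomes were shifted as a whole, and the ranking by adjusted p takes in such a shift. The share of all 42 that lie on shifted chromosomes was not counted. Subunits on other chromosomes passed too, such as Atp5g2 on chromosome 15 (-0.32) and Cox7b on the X chromosome (0.41). On chromosome 9 (median log2 difference 0.20), Cox5a of complex IV was at 310 to 336 TPM in WT and 448 to 505 TPM in KO libraries (log2 difference 0.56), Uqcrc1 of complex III was higher by 0.47 and Sdhd of complex II by 0.35. On chromosome 7 (0.26), Cox6b1 was higher by 0.40. On chromosome 11 (-0.36), Atp5h of complex V fell by 0.53 (log2), from 346 to 406 TPM in WT to 246 to 269 TPM in KO libraries. With chromosome medians set to 0, these log2 differences were 0.36 for Cox5a, 0.27 for Uqcrc1, 0.15 for Sdhd, 0.14 for Cox6b1 and -0.17 for Atp5h. Cox6a2, the form of a complex IV subunit known from heart and skeletal muscle, also lies on chromosome 7 and was the exception in size, at 2.03 to 3.01 TPM in WT and 10.1 to 11.5 TPM in KO libraries (log2 difference 2.1, standard error 0.176, adjusted p = 5.39e-06 from edgeR, higher in 3 of 3 KO libraries), and at 1.84 with chromosome medians set to 0.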
